A study of Mus musculus with 42 samples.

Results

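Lipid droplet coat proteins and their partners were followed in mouse visceral adipose tissue (VAT) by RNA sequencing. The members were 10 of the 55011 genes of the count table, taken by symbol: Plin1, Plin2, Plin3, Plin4, Plin5, Cidec, Fitm2, Bscl2, G0s2 and Hilpda. All 10 had a row in the table and at least 1 count. A fat cell stores triglyceride in droplets that bud from the endoplasmic reticulum and are coated by proteins that decide how lipases reach the lipid. Perilipins form that coat: Plin1 is the adipocyte form that holds lipases and their co-activator back until hormones signal, Plin2 coats droplets in most tissues, Plin3 is a broadly expressed form that moves on and off droplets, Plin4 is found on small new droplets of adipocytes, and Plin5 links droplets to mitochondria in oxidative tissues. Cidec sits where droplets touch and lets the smaller empty into the larger. Fitm2 and Bscl2 (seipin) act in the endoplasmic reticulum where droplets form, and G0s2 and Hilpda bind and inhibit the lipase encoded by Pnpla2.

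The 42 libraries formed 15 groups, and the labels do not say which replicates came from separate mice or wells. Each test therefore weighs differences against variation among the sequenced libraries, which may be technical. Stromal cells called VmSC4 and VmSC5 came from mice of genotype Pparg-Tdt, and how the populations were gated is not given in the sources used here. Adipogenic VmSC5 and adipogenic VmSC4 (3 libraries each) had been in adipogenic culture for 8 days. VmSC4-derived VmSC5, VmSC4-derived VmSC4 (3 each) and VmSC5-derived VmSC5 (2) were sorted again after transfer into a Kaede host mouse. Fresh VmSC5 and fresh VmSC4 (3 each) were sorted at 1000 cells a library. Adipocytes were the floating VAT cells of Pparg-Tdt:Foxp3-DTR+ mice (2 libraries) and Pparg-Tdt:Foxp3-DTR- mice (2). Both genotypes received diphtheria toxin, which kills cells that carry the receptor transgene, here the Foxp3-expressing regulatory T cells (Tregs), and 2 ng of RNA went into each library. VmSC5 under adipogenic differentiation were grown with Treg (3) or without Treg (3). The titles say Treg, whereas the series text speaks of medium conditioned by VAT Tregs. A further VmSC5 experiment under the same differentiation treatment compared oncostatin M (OSM, a cytokine of the IL-6 family) at 10 ng/mL (3) with PBS (3). VAT Tregs were of genotype OSMf/f (3, called KO in the titles) or OSM+/+ (3, called WT), and the Cre line is not given in the sources used here.

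Library totals ranged from 1072147 counts in an OSM culture to 12514783 counts in a fresh VmSC4 sort. In the adipocytes, adipogenic cells and VmSC5 cultures without OSM, at least 7 of 8 adipocyte markers were detected in each group, with sums of 15373 CPM (each count scaled to a common library total) or more, against 23.2 to 54.3 CPM in Tregs. T cell markers summed to 3212 to 4229 CPM in the Treg libraries and to at most 16.5 CPM in any other library. Osm, the targeted gene, read 9.83, 14.6 and 7.76 CPM in the KO Tregs and 29.1, 28.4 and 34.1 CPM in the WT Tregs. In bulk samples such as these, fewer cells of a type and less RNA per cell cannot be told apart.

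The promoters of 4 members are shown because these genes mark the main patterns of the values that follow: Plin1 and Cidec, which were close to absent outside fat-forming cells, Plin2, the coat gene with the most transcripts per kilobase among the perilipins of cultured cells, and Hilpda, which went the other way under OSM. Each runs 5′ to 3′ on the strand of its gene, from 250 bases before to 50 bases after a RefSeq transcription start in build GRCm38.p6, and capitals mark the motif matches described next. Plin1 lies at chr7:79732727-79733026, Cidec (the second of its listed starts) at chr6:113434715-113435014 and Plin2 at chr4:86670010-86670309, all on the minus strand. Hilpda (also its second start) lies at chr6:29272376-29272675 on the plus strand. The first listed starts of Cidec and Hilpda are at the annotated 5′ ends of these genes, and their windows are not printed.
Plin1: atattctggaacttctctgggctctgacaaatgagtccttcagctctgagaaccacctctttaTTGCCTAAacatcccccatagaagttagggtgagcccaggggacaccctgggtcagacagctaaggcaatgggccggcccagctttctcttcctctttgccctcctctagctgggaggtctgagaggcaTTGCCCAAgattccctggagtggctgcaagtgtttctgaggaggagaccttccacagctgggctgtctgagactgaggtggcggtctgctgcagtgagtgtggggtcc
Cidec: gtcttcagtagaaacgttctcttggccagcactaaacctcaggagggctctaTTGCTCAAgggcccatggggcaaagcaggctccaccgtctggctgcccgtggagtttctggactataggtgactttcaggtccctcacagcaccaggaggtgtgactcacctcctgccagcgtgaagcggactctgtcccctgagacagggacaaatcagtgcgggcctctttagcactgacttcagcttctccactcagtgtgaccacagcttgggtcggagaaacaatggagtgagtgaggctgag
Plin2: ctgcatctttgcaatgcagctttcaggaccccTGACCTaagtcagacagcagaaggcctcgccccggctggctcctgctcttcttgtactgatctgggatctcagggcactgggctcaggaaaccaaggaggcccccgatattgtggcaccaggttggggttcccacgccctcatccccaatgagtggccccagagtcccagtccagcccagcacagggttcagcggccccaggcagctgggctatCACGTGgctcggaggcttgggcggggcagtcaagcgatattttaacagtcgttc
Hilpda: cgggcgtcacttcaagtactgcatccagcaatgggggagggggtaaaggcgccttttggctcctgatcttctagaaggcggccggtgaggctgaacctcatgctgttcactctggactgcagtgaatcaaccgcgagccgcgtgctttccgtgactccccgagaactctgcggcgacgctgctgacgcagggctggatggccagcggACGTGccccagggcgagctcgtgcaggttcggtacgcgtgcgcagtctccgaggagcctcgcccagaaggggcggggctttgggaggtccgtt

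The 10 members had 15 such windows, which were searched on both strands for 5 motifs chosen with the results in view. The C/EBP motif TTGCNNAA, of factors that drive fat cell formation, matched in the windows of Plin1 (2 matches, starting 187 and 58 bases before the start) and Cidec (198 bases before its second start). The window of the first Cidec start had no match. In all, 2 of the 15 member windows held this motif, beside 10.8% of all 32851 mouse windows. The core of the hypoxia-inducible factor motif, ACGTG, matched in Hilpda (43 bases before its second start) and Plin2, where 1 palindrome close to the start counts on both strands. The window of the first Hilpda start had no match. This motif was in 2 of the 15 member windows, beside 19.6% of all windows. The nuclear receptor motif AGGTCA matched in Plin2 (218 bases before the start), Plin5 and Bscl2, in 4 of the 15 member windows, against 16.3% of all windows. The full PPAR site, a repeat of AGGTCA after any 1 base and so containing the shorter motif, and the STAT motif TTCNNNGAA had no match in these windows, and 0.0396% and 8.30% of all windows held them. These matches describe letters and no binding was measured.

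In mm10 with the GENCODE M21 annotation, Cidec lies at chr6:113424634-113435760, Plin1 at chr7:79720218-79732903, Plin2 at chr4:86648386-86670060 and Hilpda at chr6:29272488-29275446. Fitm2 lies at chr2:163466379-163472629, Bscl2 at chr19:8837467-8848683 and G0s2 at chr1:193272161-193273217. The other three form a cluster on chromosome 17, where Plin4, Plin5 and Plin3 lie on the minus strand with 1797 bases between Plin4 and Plin5 and 159879 bases between Plin5 and Plin3. In that annotation 4 members overlap another gene: Plin4 overlaps Hdgfl2, Fitm2 overlaps 2310001K24Rik, Bscl2 overlaps Gng3 and another annotated gene, and G0s2 overlaps Lamb3. The strand setting of the counting is not given in the sources used here, so reads in those overlaps cannot be assigned with certainty. Hdgfl2 read 139 to 211 CPM in KO Tregs, where Plin4 read 0 to 6.47 CPM, and Lamb3 read 34.0 to 45.8 CPM in KO Tregs, where G0s2 had no count.

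The plot of CPM by group shows each member in all 42 libraries. Cidec covered the widest range, with mean levels of 9771 CPM in adipogenic VmSC5 and 10558 CPM in adipogenic VmSC4, 9464 CPM in DTR+ adipocytes and 6996 CPM in DTR- adipocytes, 1382 CPM with Treg and 3779 CPM without Treg, and 10.3 CPM in OSM cultures and 947 CPM in PBS cultures. Every fresh, transferred and Treg group averaged 1.47 CPM or less. Ordered by mean, ranges of neighbours overlapped among the 3 groups with the highest means and among the fresh, transferred and Treg groups, while each group from DTR- adipocytes down to OSM cultures lay wholly above the next. Plin1 had its highest mean in the tissue adipocytes instead, at 1345 CPM in DTR+ adipocytes and 3627 CPM in DTR- adipocytes, against 746 CPM in adipogenic VmSC5 and 521 CPM in adipogenic VmSC4. Plin1 averaged 1.36 CPM or less in the fresh and transferred groups. Plin4 peaked in DTR- adipocytes like Plin1, at 1661 CPM.

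Plin2 was led by the cultured fat cells and was low in tissue adipocytes. Its mean level was 5583 CPM in adipogenic VmSC5, 5759 CPM in adipogenic VmSC4, 3358 CPM with Treg, 2623 CPM without Treg and 2486 CPM in PBS cultures, whereas DTR+ adipocytes averaged 441 CPM and DTR- adipocytes 386 CPM. OSM cultures averaged 290 CPM, fresh VmSC5 267 CPM and Tregs 171 to 192 CPM. Plin2 was detected at 119 CPM or more in every library. Plin3 had its highest means in fresh VmSC5 (251 CPM) and fresh VmSC4 (283 CPM) and 71.1 to 121 CPM in all fat-forming or fat cell groups. Plin5 was highest in adipogenic VmSC5 (204 CPM) and adipogenic VmSC4 (125 CPM) and stayed under 1 CPM on average in fresh, transferred, OSM and Treg groups. Hilpda was the 1 member with its highest means in Tregs, at 96.9 CPM in KO Tregs and 124 CPM in WT Tregs, followed by OSM cultures at 85.3 CPM.

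**Figure D1:**
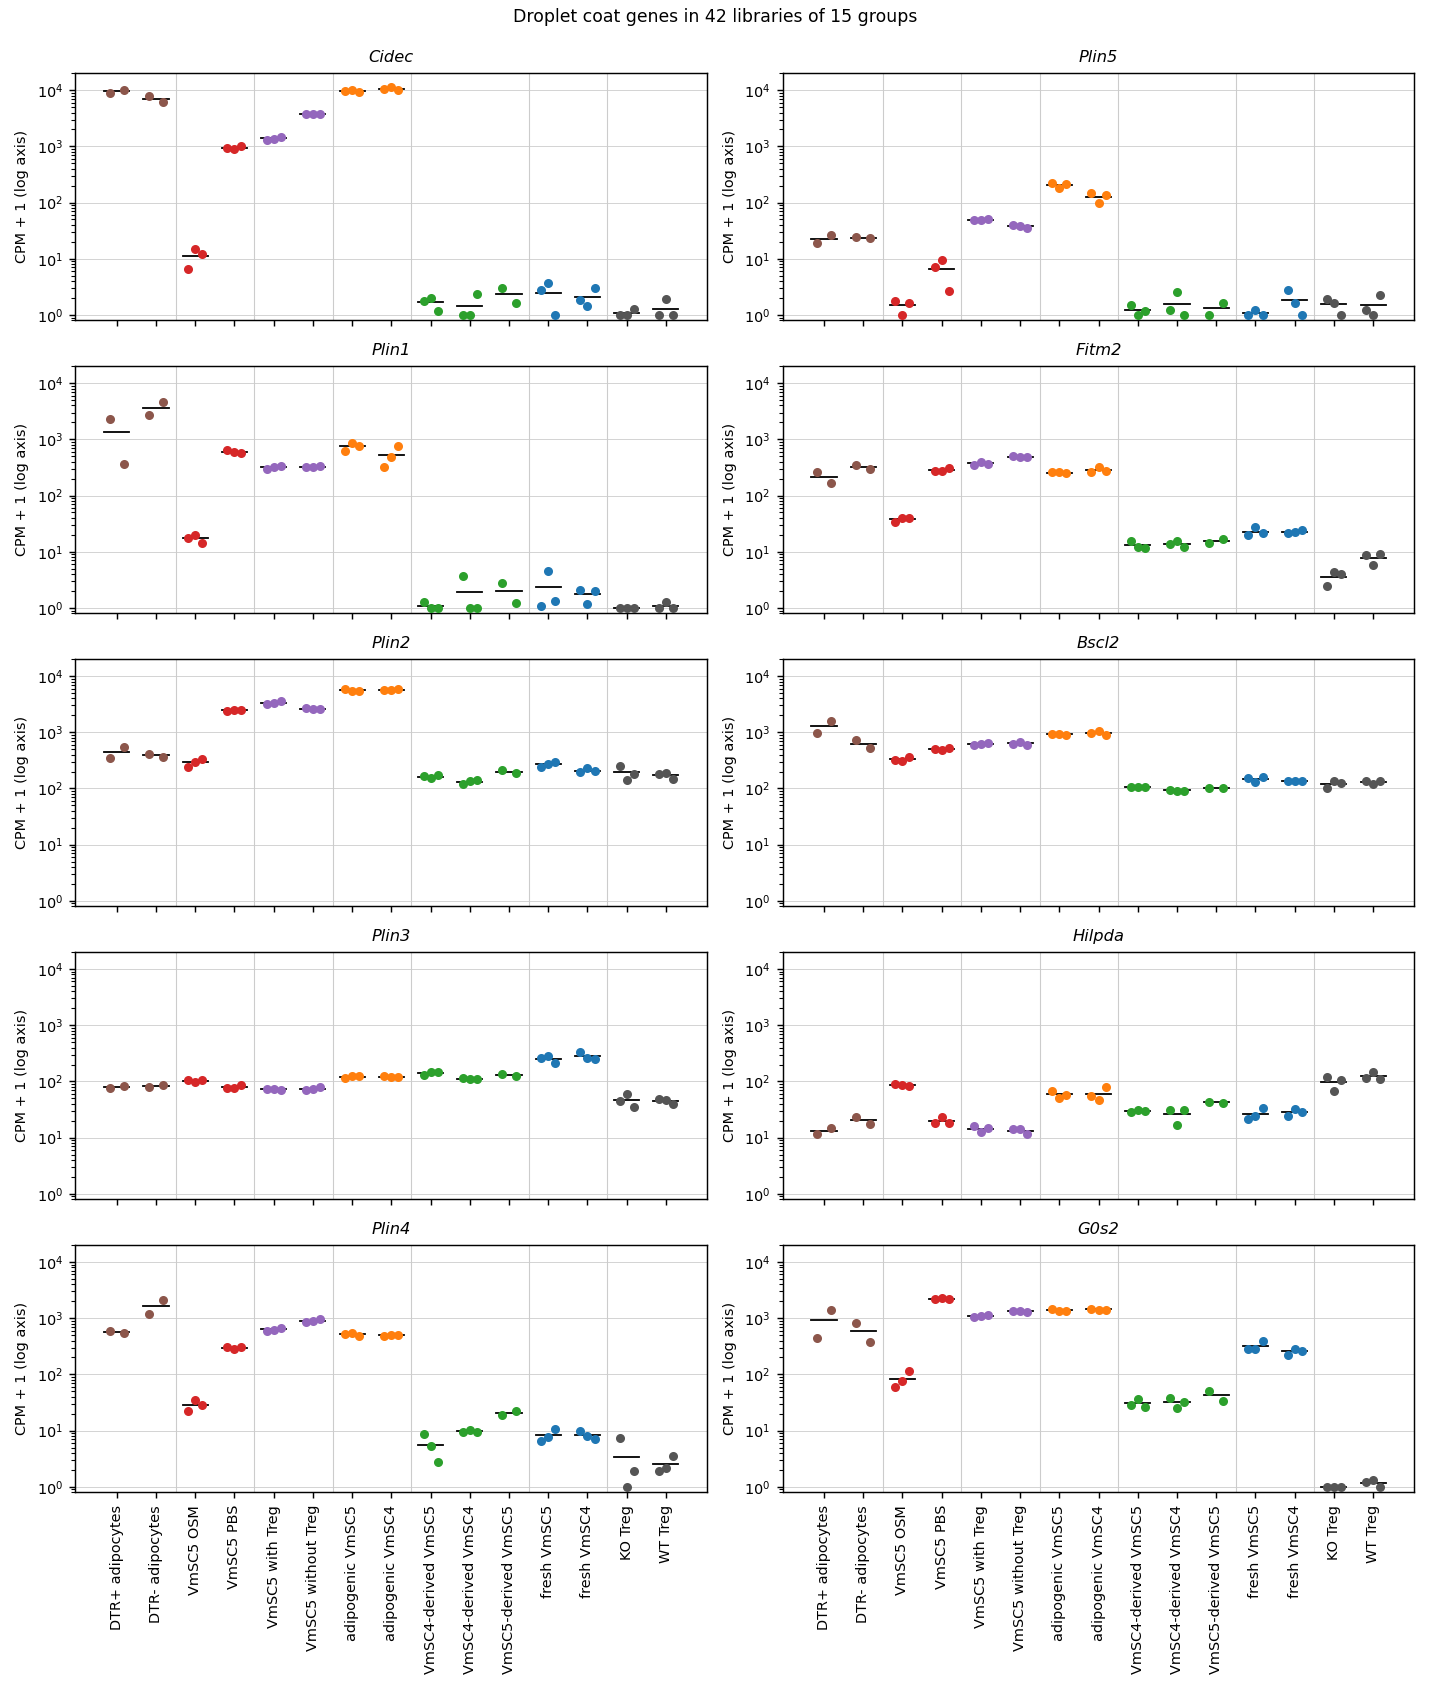
Level of each coat gene in CPM + 1 on a log axis; each point is 1 of 42 libraries, black bars are group means, and colours separate the experiments. Cidec spans 0.0995 to 10558 CPM between group means, Plin2 stays at 119 CPM or more in every library, and Hilpda is highest in Tregs and OSM cultures.

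Per length of transcript the members can be set against each other, here as CPM per kilobase of annotated exons. Cidec made up 57.8% of the summed CPM per kilobase of the 10 genes in adipogenic VmSC5, 59.5% in adipogenic VmSC4, 73.3% in DTR+ adipocytes and 64.0% in DTR- adipocytes. G0s2 led with 64.8% in fresh VmSC5, 60.6% in fresh VmSC4, 61.5% in PBS cultures and 37.1% with Treg. Hilpda led in Tregs, at 49.3% in KO and 56.7% in WT cells. The ratio of Plin2 to Plin1, both in CPM per kilobase, averaged 10.1 in adipogenic VmSC5 and 16.6 in adipogenic VmSC4, and lay at 0.197 and 1.94 in the 2 DTR+ adipocyte libraries and 0.204 and 0.104 in the 2 DTR- adipocyte libraries, so that DTR+ replicate 2 was within the DTR- range and replicate 3 far above it. In total the 10 genes took 1.96% of all counts in adipogenic VmSC5 and 2.03% in adipogenic VmSC4, 1.44% in DTR+ and 1.43% in DTR- adipocytes, and 0.0412% to 0.104% in fresh and transferred cells. The tissue and culture libraries were made from different inputs, and these contrasts were not tested.

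**Figure D2:**
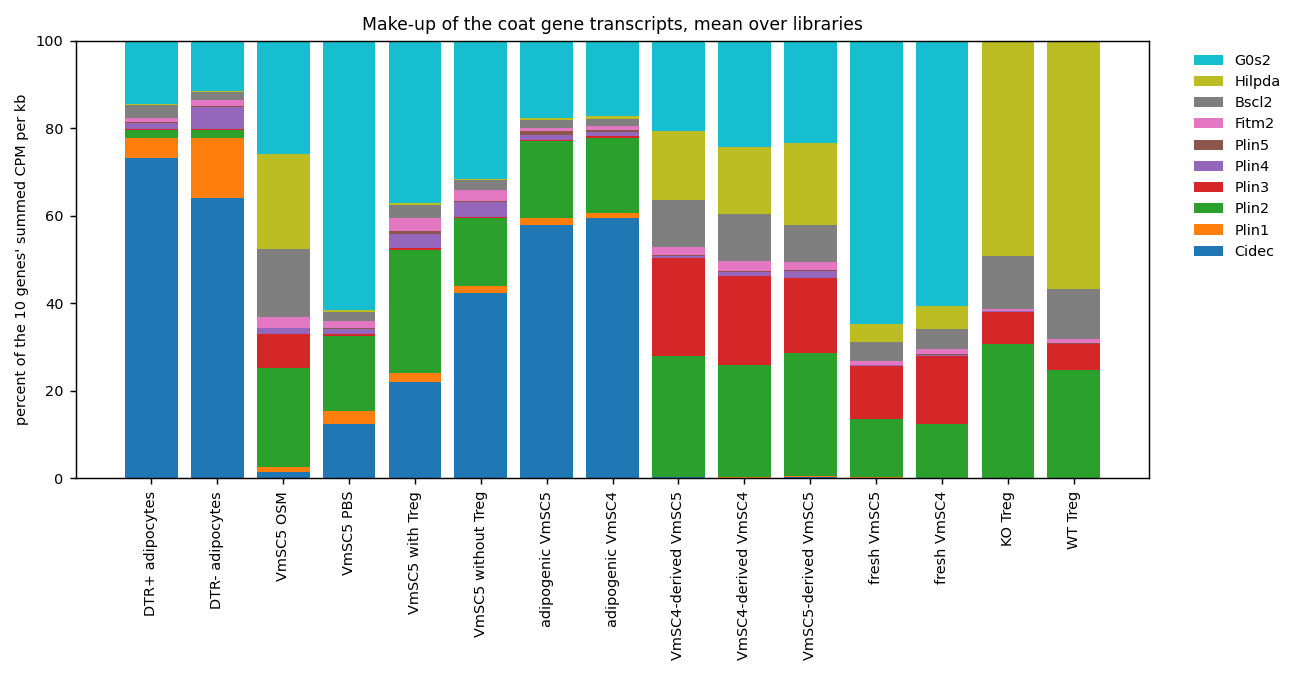
Mean percent of the 10 genes' summed CPM per kilobase of exons contributed by each gene, by group. Cidec (blue) is the largest part in adipogenic cells, adipocytes and cultures without Treg, G0s2 (cyan) in fresh cells, PBS cultures and cultures with Treg, and Hilpda (olive) in Tregs.

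Which members were set up by adipogenic culture was asked by comparing cultured with fresh cells. Plin1, Plin2, Plin4, Plin5, Cidec, Fitm2, Bscl2, G0s2 and Hilpda rose in both populations, and Plin3 fell in both. Genes were tested with edgeR's quasi-likelihood test, calling a Benjamini-Hochberg adjusted p under 0.05 over all tested genes, and 10 of 10 members were called in each population, where 71.0% of all 13221 tested genes were called in VmSC5 and 70.4% in VmSC4. In VmSC5 33.4% of all genes were called higher and 37.6% lower, and in VmSC4 31.9% higher and 38.5% lower, beside 9 members higher and 1 lower in each. Cidec read 9670, 10218 and 9425 CPM in adipogenic VmSC5 and 1.75, 2.66 and 0 CPM in fresh VmSC5, and 10512, 11253 and 9910 CPM in adipogenic VmSC4 and 0.879, 0.447 and 2.05 CPM in fresh VmSC4. These are the widest gaps among the members, with log2 fold changes of 13.07 ± 0.57 (SE, adjusted p = 2.23e-08 by edgeR) in VmSC5 and 13.70 ± 0.58 (adjusted p = 1.88e-08) in VmSC4. Plin1 read 619, 864 and 757 CPM in adipogenic VmSC5 and 0.103, 3.61 and 0.352 CPM in fresh VmSC5, and its log2 fold change was 9.49 ± 0.74 there and 9.87 ± 0.76 in VmSC4. Over the 3 fresh VmSC5 libraries Cidec had 42 counts and Plin1 38 counts, and over the 3 fresh VmSC4 libraries 40 and 28 counts.

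Plin5 had 1328 counts over the 3 adipogenic VmSC5 libraries and only 2 over the 3 fresh VmSC5 libraries, a ratio of 2815 after division by library totals with a 95% counting interval of 778 to 23268. In VmSC4 the same comparison rested on 808 counts in adipogenic cells and 30 counts in fresh cells, with a log2 fold change of 7.71 ± 0.50. Plin2, already well expressed in fresh cells, read 5793, 5486 and 5470 CPM in adipogenic VmSC5 and 236, 268 and 298 CPM in fresh VmSC5, and its log2 fold change was 4.81 ± 0.13 in VmSC5 and 5.33 ± 0.14 in VmSC4. Adipogenic and fresh CPM ranges did not overlap for any of the 10 members in either population, and they did not overlap for 78.0% of all tested genes in VmSC5 and 78.8% in VmSC4. Plin4 rose by 6.57 ± 0.18 and 6.63 ± 0.18 on the log2 scale in VmSC5 and VmSC4.

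The genes of droplet formation and lipase inhibition rose as well. Fitm2 gained 3.98 ± 0.15 (log2 fold change ± SE) in VmSC5 and 4.28 ± 0.15 in VmSC4, Bscl2 3.09 ± 0.12 and 3.38 ± 0.12, and G0s2 2.53 ± 0.14 and 3.03 ± 0.14. Hilpda gained 1.61 ± 0.21 in VmSC5 and 1.65 ± 0.21 in VmSC4. Plin3 read 116, 123 and 123 CPM in adipogenic VmSC5 and 261, 282 and 209 CPM in fresh VmSC5, a log2 fold change of -0.63 ± 0.13 (edgeR adjusted p = 0.000134), and in VmSC4 the change was -0.69 ± 0.13 (adjusted p = 4.48e-05). The median tested gene shifted by -0.18 and -0.23 in these 2 fits, and with libraries scaled by their totals only, the median was -0.60 and -0.77 and Plin3 stood at -1.06 and -1.23, so Plin3 was below the median gene under both scalings.

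Around the coat, the lists of related genes moved as follows in adipogenic VmSC5 against fresh VmSC5. All 7 droplet lipases and partners tested rose, with a median log2 fold change of 6.16 beside 4.39 over the 10 members and -0.18 over all genes, among them Pnpla2, the lipase that G0s2 and Hilpda inhibit, at 6.99 ± 0.19. Of 7 triglyceride synthesis genes tested (of 9 listed), 6 rose, led by Agpat2 (9.26 ± 0.17), which acylates lysophosphatidic acid. Other droplet proteins were mixed: 7 of 16 tested rose and 4 fell. Cidea, a relative of Cidec known from brown fat, averaged 125 CPM in adipogenic VmSC5 and 0.0782 CPM in fresh VmSC5, whereas Lpcat1, which remodels phosphatidylcholine, fell by 3.79 ± 0.35 on the log2 scale. Of 8 regulators tested, 5 rose, among them Pparg (3.31 ± 0.20) and Cebpa (2.32 ± 0.24), and Epas1 fell. Of 12 hypoxia targets, 10 rose in each population, with a median log2 fold change of 4.56 in VmSC5 and 4.18 in VmSC4, among them Egln3, a prolyl hydroxylase (8.93 ± 0.36 in VmSC5).

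Markers of cell state moved with the coat genes in culture. All 8 adipocyte markers rose, with sums of 28741 to 29205 CPM in adipogenic VmSC5 and 1995 to 2089 CPM in fresh VmSC5. All 6 fibroblast or stromal markers fell in both populations, with sums of 1299 to 1361 CPM in adipogenic VmSC5 and 43678 to 45365 CPM in fresh VmSC5, and 1023 to 1265 CPM in adipogenic VmSC4 and 39494 to 45170.3 CPM in fresh VmSC4. Mitochondrially encoded genes took 6.31% to 7.26% of counts in adipogenic VmSC5 and 0.0722% to 0.167% in fresh VmSC5, and 6.05% to 6.81% in adipogenic VmSC4 and 0.304% to 0.423% in fresh VmSC4. The part of these differences in the members' values was not tested.

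No coat gene was called between the populations after culture. In adipogenic VmSC5 against adipogenic VmSC4, 0 of 10 members were called by edgeR and 0 by DESeq2, beside 0.340% of all genes called by edgeR. At an unadjusted edgeR p under 0.05 there were 0 members, beside 1039 of all 13221 tested genes. The widest estimate was that of Plin5, at 220, 180 and 212 CPM in adipogenic VmSC5 and 145, 98.2 and 133 CPM in adipogenic VmSC4. The ranges of Plin5 did not overlap, yet the log2 difference was 0.68 ± 0.33 with an adjusted p of 0.691 by edgeR. Fitting these 2 groups alone, without the fresh cells, gave 0.71 with an adjusted p of 0.00457. Fitm2 ranges did not overlap either, at 261, 260 and 246 CPM in adipogenic VmSC5 and 262, 327 and 275 CPM in adipogenic VmSC4. They almost touched, with a highest value of 261.4 CPM in adipogenic VmSC5 and a lowest of 261.7 CPM in adipogenic VmSC4. For Cidec the log2 difference was -0.14 ± 0.32 and for Plin2 -0.08 ± 0.11. Cidec, Plin2 and the other 6 members had overlapping ranges. Of 16 other droplet proteins tested, 6 had ranges that did not overlap. The share over all genes was not computed, so ranges without overlap cannot be read as a difference of the members. Plin1 ran between 619 and 864 CPM in adipogenic VmSC5 and between 319 and 768 CPM in adipogenic VmSC4. Plin3 averaged 121 CPM in both populations. In adipogenic VmSC5 the mean was 515 CPM for Plin4, 921 CPM for Bscl2, 57.8 CPM for Hilpda and 1392 CPM for G0s2. In adipogenic VmSC4 it was 496 CPM for Plin4, 967 CPM for Bscl2, 59.8 CPM for Hilpda and 1437 CPM for G0s2.

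A test of whether the culture response itself differed between the populations called 0 of 10 members by edgeR and 1 by DESeq2, beside 2.87% of all genes called by edgeR. At an unadjusted edgeR p under 0.05 there were 3 members (Plin2, Plin5 and G0s2), beside 2338 of all 13221 tested genes. Plin2 was the member called by DESeq2, with a log2 difference of the responses of -0.57 (DESeq2 adjusted p = 0.00932), against -0.53 ± 0.16 and an adjusted p of 0.0694 by edgeR. Plin2 was also the only member of 9 tested that was called between the fresh populations. It read 236, 268 and 298 CPM in fresh VmSC5 and 194, 227 and 202 CPM in fresh VmSC4, without overlap, a log2 fold change of 0.46 ± 0.12 (edgeR adjusted p = 0.0076). Of all genes, 18.4% were called in that comparison. G0s2 was at 282, 287 and 400 CPM in fresh VmSC5 and 221, 287 and 261 CPM in fresh VmSC4, with overlapping ranges and a log2 fold change of 0.43 ± 0.17 (adjusted p = 0.0893), and it passed the threshold without fresh VmSC5 replicate 1 (0.53, adjusted p = 0.0479). The other members overlapped between the fresh populations. In fresh VmSC5 the mean was 251 CPM for Plin3, 146 CPM for Bscl2, 25.3 CPM for Hilpda, 21.8 CPM for Fitm2 and 7.29 CPM for Plin4. In fresh VmSC4 it was 283 CPM for Plin3, 135 CPM for Bscl2, 27.7 CPM for Hilpda, 21.6 CPM for Fitm2 and 7.25 CPM for Plin4.

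After transfer into a host mouse 5 coat genes were lower than in fresh cells of either population. Of 9 members tested, 7 were called in VmSC5-derived VmSC5 against fresh VmSC5, beside 46.4% of all genes, and 5 in VmSC4-derived VmSC4 against fresh VmSC4, beside 46.1% of all genes. Plin2, Plin3, Fitm2, Bscl2 and G0s2 fell in both comparisons. Of all genes, 23.9% were called higher and 22.4% lower in the VmSC5 comparison, and 21.4% higher and 24.7% lower in the VmSC4 comparison. The widest member difference was G0s2, at 49.7 and 32.7 CPM in VmSC5-derived VmSC5 and 282, 287 and 400 CPM in fresh VmSC5, and at 37.1, 23.9 and 31.9 CPM in VmSC4-derived VmSC4 and 221, 287 and 261 CPM in fresh VmSC4. All 5 transferred libraries lay far below all 6 fresh libraries. The log2 fold changes of G0s2 were -3.03 ± 0.23 (edgeR adjusted p = 2.02e-09) and -2.99 ± 0.20 (adjusted p = 2.89e-10). Plin3 fell by 1.01 ± 0.15 and 1.33 ± 0.13, Plin2 by 0.49 ± 0.14 and 0.65 ± 0.12, Fitm2 by 0.65 ± 0.23 and 0.75 ± 0.22, and Bscl2 by 0.58 ± 0.13 and 0.54 ± 0.12, on the log2 scale, in the VmSC5 and the VmSC4 comparison.

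Plin4 and Hilpda rose in the VmSC5 comparison and were not called in the VmSC4 comparison, where Plin4 averaged 8.67 CPM in VmSC4-derived VmSC4 and 7.25 CPM in fresh VmSC4, and Hilpda 25.3 CPM in VmSC4-derived VmSC4 and 27.7 CPM in fresh VmSC4. Whether these responses differed between the populations was not tested. Plin4 read 18.3 and 21.4 CPM in VmSC5-derived VmSC5 and 5.56, 6.70 and 9.62 CPM in fresh VmSC5, a log2 fold change of 1.39 ± 0.35 (edgeR adjusted p = 0.00197). Hilpda read 42.8 and 39.8 CPM in VmSC5-derived VmSC5 and 20.9, 22.9 and 32.2 CPM in fresh VmSC5, a change of 0.65 ± 0.23 (adjusted p = 0.0237). Leaving out fresh VmSC5 replicate 1 or 2, or VmSC5-derived VmSC5 replicate 1 or 2, ended the call of Hilpda (adjusted p 0.069 to 0.143). The call of Fitm2 was lost without fresh VmSC5 replicate 2 or VmSC5-derived VmSC5 replicate 1 (adjusted p = 0.12 and 0.2) and with the 2 groups fitted alone (0.0526), and that of Plin2 without VmSC5-derived VmSC5 replicate 2 (0.0704). Fibroblast or stromal markers summed to 83713 to 84275 CPM in VmSC5-derived VmSC5 and 43678 to 45365 CPM in fresh VmSC5, to 123206 to 126584 CPM in VmSC4-derived VmSC4 and 39494 to 45170.3 CPM in fresh VmSC4. Of 5 adipocyte markers tested, 3 fell in the VmSC5 comparison and 4 in the VmSC4 comparison, with median log2 fold changes of -0.97 and -1.57, and none rose. The adipocyte marker sum was 1319 to 1570 CPM in VmSC5-derived VmSC5 and 1995 to 2089 CPM in fresh VmSC5, and 1070 to 1287 CPM in VmSC4-derived VmSC4 and 1352 to 1762 CPM in fresh VmSC4. Mitochondrially encoded genes took 0.831% to 1.04% of counts in VmSC5-derived VmSC5 and 0.0722% to 0.167% in fresh VmSC5, and 0.670% to 0.871% in VmSC4-derived VmSC4 and 0.304% to 0.423% in fresh VmSC4. The part of these markers and shares in the members' results was not tested.

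VmSC4-derived VmSC5 against VmSC4-derived VmSC4 gave 0 of 9 members called by edgeR and 0 by DESeq2, beside 1.77% of all genes called by edgeR. At an unadjusted edgeR p under 0.05 there were 4 members (Plin2, Plin3, Plin4 and Bscl2), beside 2263 of all 13947 tested genes. Plin2 was at 163, 150 and 170 CPM in VmSC4-derived VmSC5 and 119, 132 and 140 CPM in VmSC4-derived VmSC4, and Plin3 at 127, 145 and 147 CPM in VmSC4-derived VmSC5 and 114, 111 and 108 CPM in VmSC4-derived VmSC4. Both pairs of ranges were apart, and the edgeR adjusted p was 0.107 for Plin2 and 0.0992 for Plin3. The ranges of Plin4 (1.82 to 7.66 CPM in VmSC4-derived VmSC5 and 8.32 to 9.15 CPM in VmSC4-derived VmSC4) and of Bscl2 (104 to 107 CPM in VmSC4-derived VmSC5 and 88.8 to 94.6 CPM in VmSC4-derived VmSC4) were apart as well. So were those of 4 of 15 other droplet proteins tested. The share over all genes was not computed, so separate ranges cannot be read as a difference of the members. Ranges overlapped for Fitm2, with a mean of 12.04 CPM in VmSC4-derived VmSC5 and 12.8 CPM in VmSC4-derived VmSC4, for Hilpda, with 28.6 CPM in VmSC4-derived VmSC5 and 25.3 CPM in VmSC4-derived VmSC4, and for G0s2, with 29.8 CPM in VmSC4-derived VmSC5 and 31.0 CPM in VmSC4-derived VmSC4. VmSC4-derived VmSC5 against VmSC5-derived VmSC5 gave 1 of 9, beside 1.15% of all genes. That member was Plin4, at 7.66, 4.33 and 1.82 CPM in VmSC4-derived VmSC5 and 18.3 and 21.4 CPM in VmSC5-derived VmSC5, a log2 fold change of -2.08 ± 0.38 (edgeR adjusted p = 0.00329). Without VmSC5-derived VmSC5 replicate 2 the value was -1.95 with an adjusted p of 0.0832. Among the members without a call, Plin2 averaged 161 CPM, Plin3 140 CPM, Bscl2 105 CPM, G0s2 29.8 CPM, Hilpda 28.6 CPM and Fitm2 12.04 CPM in VmSC4-derived VmSC5. In VmSC5-derived VmSC5 the means were 198 CPM for Plin2, 130 CPM for Plin3, 101 CPM for Bscl2, 41.2 CPM for G0s2, 41.3 CPM for Hilpda and 14.4 CPM for Fitm2. The ranges of Plin2, Bscl2 and Hilpda were apart here as well, and those of Plin3, G0s2 and Fitm2 overlapped. Those of 6 of 15 other droplet proteins tested were also apart, and the share over all genes was again not computed.

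**Figure D3:**
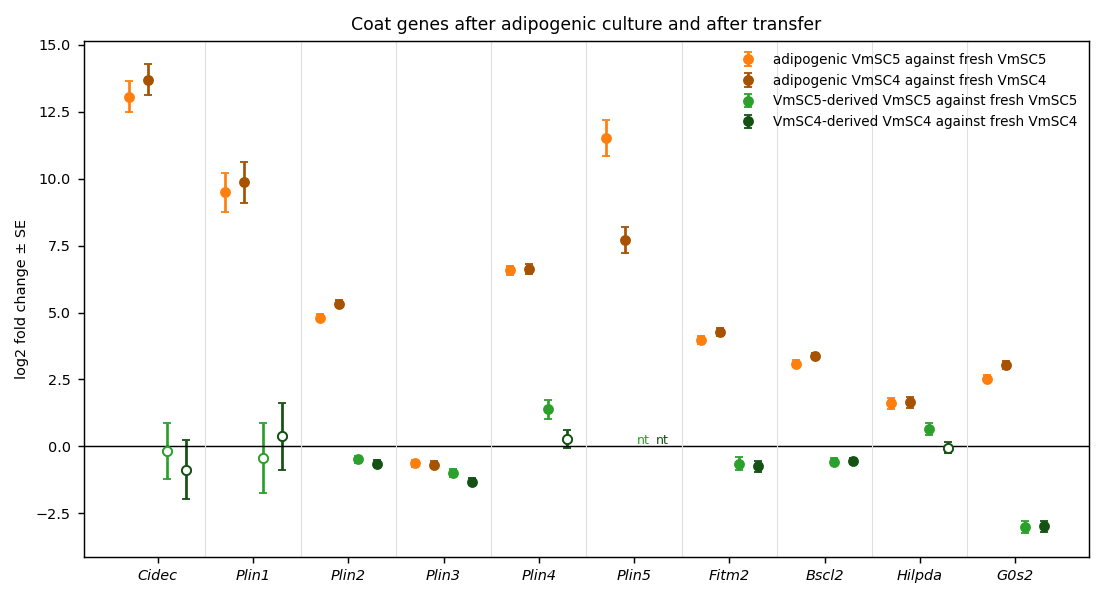
Log2 fold change ± SE of each coat gene in adipogenic cells and in transferred cells against fresh cells of the same population; filled points were called by edgeR at an adjusted p under 0.05, open points were not, and nt marks genes too low to test. Culture raised 9 genes and lowered Plin3, whereas transfer lowered G0s2 most, by 3.03 and 2.99.

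Whether Tregs act on the adipogenesis of VmSC5 was the question of the culture comparison. With Treg, Cidec fell most, Plin4, Fitm2 and G0s2 fell less, and Plin2 and Plin5 rose, while Plin1, Plin3, Bscl2 and Hilpda did not pass the test. This made 6 of 10 members called, 2 higher and 4 lower, beside 43.4% of all genes (22.4% higher and 21.0% lower). Cidec read 1317, 1372 and 1456 CPM with Treg and 3825, 3781 and 3730 CPM without Treg. All 3 libraries with Treg lay below all 3 without Treg. The log2 fold change was -1.44 ± 0.05 (edgeR adjusted p = 9.60e-23), a 2.71-fold lower level. Plin1, the adipocyte perilipin, read 298, 322 and 337 CPM with Treg and 326, 319 and 332 CPM without Treg, with overlapping ranges and a log2 fold change of -0.02 ± 0.06. The ratio of Cidec to Plin1 in CPM per kilobase was 10.9 with Treg (10.7 to 11.1) and 29.1 without Treg (28.1 to 29.7).

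The 2 members that rose are perilipins outside the adipocyte-specific form. Plin2 read 3158, 3352 and 3563 CPM with Treg and 2663, 2631 and 2575 CPM without Treg, a log2 fold change of 0.37 ± 0.05 (edgeR adjusted p = 5.00e-07). Plin5 read 47.1, 47.7 and 50.5 CPM with Treg and 38.9, 37.0 and 34.4 CPM without Treg, a change of 0.41 ± 0.10 (adjusted p = 0.000703). Neither pair of ranges overlapped. Plin4 was at 601, 626 and 671 CPM with Treg and 865, 892 and 952 CPM without Treg (-0.50 ± 0.06), so the neighbours Plin4 and Plin5 were called in opposite directions. Fitm2 changed by -0.39 ± 0.06 and G0s2 by -0.26 ± 0.05. Ranges of the other members without a call overlapped, at 68.8 to 72.3 CPM with Treg and 70.0 to 77.7 CPM without Treg for Plin3, 605 to 635 CPM with Treg and 600 to 673 CPM without Treg for Bscl2, and 11.7 to 15.1 CPM with Treg and 10.5 to 13.04 CPM without Treg for Hilpda. By CPM per kilobase, Cidec came after G0s2 and Plin2 with Treg, at 21.9% of the sum, and was the largest member without Treg, at 42.4%.

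All 7 lipases and partners fell with Treg, with a median log2 fold change of -0.45 beside -0.03 over the 10 members and -0.00292 over all genes, and 6 of 7 triglyceride synthesis genes tested fell, with a median of -0.56. Pnpla2 fell by 0.44 ± 0.06, Lipe, the hormone-sensitive lipase, by 0.44 ± 0.06, and Lpin1, a phosphatidate phosphatase, by 1.15 ± 0.06. All 8 adipocyte markers fell, including Adipoq by 1.32 ± 0.06 and Pparg by 0.22 ± 0.08. Among other droplet proteins 4 of 14 tested rose and 2 fell, with Spg20, the spartin gene, at 1.07 ± 0.11 and Pnpla3 at -0.49 ± 0.07. Adipocyte markers summed to 16692 to 19073 CPM with Treg and 25447 to 27503 CPM without Treg, while fibroblast or stromal markers summed to 10740 to 12528 CPM with Treg and 4017 to 4694 CPM without Treg. Mitochondrially encoded genes took 1.78% to 2.03% of counts with Treg and 4.13% to 4.42% without Treg. The part of that difference in the members' values was not tested. The 6 T cell markers summed to 2.78 to 4.16 CPM with Treg and 3.47 to 4.09 CPM without Treg. Among them, Cd3e, Cd3g, Cd4 and Foxp3 were at 0 in every library with Treg, and also in every PBS culture.

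Most coat genes were lower in VmSC5 grown with OSM, the cytokine named in the series title as the mediator. Of 9 members tested, 7 fell and 2 rose, beside 45.8% of all genes called (22.8% higher and 23.0% lower). Cidec read 5.62, 13.99 and 11.2 CPM in OSM cultures and 933, 879 and 1029 CPM in PBS cultures, a log2 fold change of -6.42 ± 0.15 (edgeR adjusted p = 2.41e-35) and an 85.9-fold lower level. Plin1 read 16.8, 18.7 and 13.1 CPM with OSM and 636, 594 and 578 CPM with PBS, a change of -5.13 ± 0.13 (adjusted p = 4.85e-34). G0s2 read 58.6, 75.5 and 116 CPM with OSM and 2214, 2299 and 2157 CPM with PBS, a change of -4.61 ± 0.19 (adjusted p = 3.44e-08). For these members every OSM library lay more than an order of magnitude below every PBS library. Plin4 changed by -3.32 ± 0.14, Plin2 by -2.99 ± 0.09 and Fitm2 by -2.85 ± 0.13, and Bscl2 by only -0.52 ± 0.09. Plin2 still read 242, 290 and 339 CPM with OSM, against 2404, 2515 and 2539 CPM with PBS, so among the perilipins it had the largest remaining level per kilobase. Plin5 was too low to test, with 1, 0 and 1 counts in OSM libraries and 8, 18 and 2 counts in PBS libraries.

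Hilpda and Plin3 rose with OSM. Hilpda read 88.3, 84.9 and 82.8 CPM in OSM cultures and 16.997, 22.6 and 17.1 CPM in PBS cultures, without overlap, a log2 fold change of 2.23 ± 0.19 (edgeR adjusted p = 1.36e-14). Plin3 read 104, 97.9 and 106 CPM with OSM and 74.9, 76.0 and 87.0 CPM with PBS, a change of 0.49 ± 0.13 (adjusted p = 0.00235). The 2 lipase inhibitors G0s2 and Hilpda, which share the target encoded by Pnpla2, were thus called in opposite directions. By CPM per kilobase G0s2 was 25.9% of the sum in OSM cultures, where Hilpda reached 21.7%, and G0s2 was 61.5% in PBS cultures. Hilpda is a known target of hypoxia-inducible factors, and all 9 other hypoxia targets tested, of 12 listed, rose with OSM, with a median log2 fold change of 1.18 beside 0.0036 over all genes. Among them Ndrg1 rose by 3.02 ± 0.21, Pdk1, which limits pyruvate entry to mitochondria, by 2.68 ± 0.17, and Ldha, which makes lactate, by 0.96 ± 0.08. Hif1a rose by 2.34 ± 0.09 and Epas1 by 1.88 ± 0.09, while Pparg fell by 2.87 ± 0.19 and Cebpa by 3.21 ± 0.20. The hypoxia targets summed to 5665 to 6164 CPM in OSM cultures and 2913 to 3173 CPM in PBS cultures. Their sums were 8510 to 9625 CPM in adipogenic VmSC5 and 1317 to 1388 CPM in WT Tregs. Hilpda averaged 85.3, 18.9, 57.8 and 124 CPM in these groups, in the same order. The part of hypoxia-inducible factors in the rise of Hilpda was not tested.

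Lipases and synthesis genes fell with OSM together with most of the coat. Of 7 lipases and partners, 6 fell, with a median log2 fold change of -3.74 beside -2.99 over the 9 members tested. Pnpla2 fell by 4.68 ± 0.11 and Lipe by 4.83 ± 0.12, and Abhd5, the co-activator that Plin1 holds, by 1.34 ± 0.08. Of 7 triglyceride synthesis genes tested, 5 fell, with Gpat3 at -6.56 ± 0.20 and Agpat2 at -5.55 ± 0.12. Of 13 other droplet proteins tested, 1 rose and 3 fell, with a median of 0.04. All 6 adipocyte markers tested fell. Their sum was 1326 to 1844 CPM in OSM cultures and 15373 to 17865 CPM in PBS cultures, and Cfd was at 0 in OSM cultures and averaged 0.765 CPM in PBS cultures, and Lep was at 0 in both. Fibroblast or stromal markers summed to 47646 to 57812 CPM with OSM and 10665 to 11067 CPM with PBS, pericyte markers summed to 905 to 1205 CPM with OSM and 173 to 223 CPM with PBS, and mitochondrially encoded genes took 1.53% to 1.64% of counts with OSM and 2.40% to 2.92% with PBS. The part of these differences in the members' values was not tested.

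**Figure D4:**
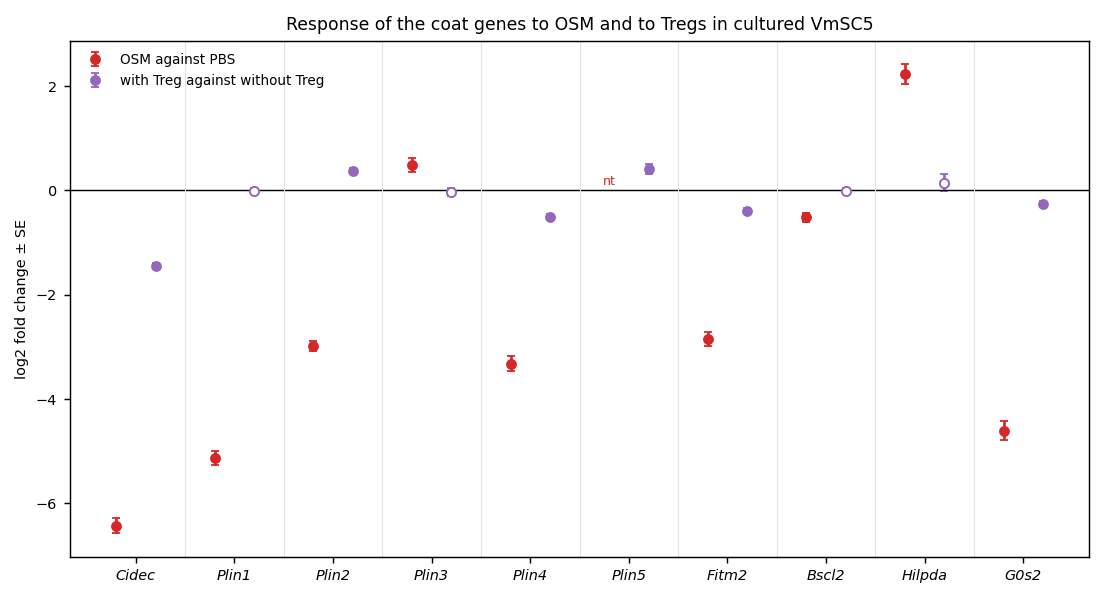
Log2 fold change ± SE of each coat gene for OSM against PBS (red) and for cultures with against without Treg (purple); filled points were called by edgeR at an adjusted p under 0.05, open points were not, and nt marks Plin5, too low to test with OSM. OSM moved Cidec by -6.42 and Hilpda by 2.23, and Treg cultures moved Cidec by -1.44 and Plin2 by 0.37.

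The OSM response and the Treg response of the coat genes were compared in 1 fit over both experiments. All 10 members differed between the responses, 2 more positive and 8 more negative with OSM, beside 32.5% of all genes called (14.9% more positive and 17.6% more negative). Plin2 changed by -2.99 with OSM and by 0.37 with Treg, and the difference was -3.32 ± 0.11 (edgeR adjusted p = 5.67e-27). Plin1 changed by -5.13 with OSM and by -0.02 with Treg, and the difference was -5.08 ± 0.15 (adjusted p = 7.41e-30). Both responses of Cidec, Plin4, Fitm2 and G0s2 were called lower, and each was lower still with OSM, with differences of -4.95 ± 0.17, -2.79 ± 0.14, -2.42 ± 0.13 and -4.31 ± 0.17. For Bscl2 the difference was -0.46 ± 0.10, for Plin3 0.56 ± 0.14 and for Hilpda 2.13 ± 0.25. That of Plin5, -3.73 ± 0.74, rests on 2 counts in OSM libraries and depends on the prior count. The experiments differed in depth and controls: the control cultures averaged 947 CPM of Cidec with PBS and 3779 CPM without Treg, and experiment and response cannot be told apart.

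In adipocytes of mice depleted of Tregs, the test called no coat gene. The 2 DTR+ libraries stood further apart than any other replicate pair of the series, with a chi-square per degree of freedom of 145.3, against 28.4 for the DTR- pair. Of 10 members, 0 were called by edgeR and 0 by DESeq2, beside 2.43% of all genes called by edgeR. At an unadjusted edgeR p under 0.05 there was 1 member (Bscl2), beside 1940 of all 11803 tested genes. Plin1 read 2324 and 366 CPM in DTR+ adipocytes and 2686 and 4567 CPM in DTR- adipocytes, a log2 fold change of -1.21 ± 0.71 (edgeR adjusted p = 0.4). Both DTR+ values were below both DTR- values, and replicate 3 of the DTR+ group was far below replicate 2. Plin4 read 585 and 554 CPM in DTR+ adipocytes and 1193 and 2128 CPM in DTR- adipocytes (-1.07 ± 0.64, adjusted p = 0.408). Bscl2 read 963 and 1615 CPM in DTR+ adipocytes and 729 and 531 CPM in DTR- adipocytes (1.57 ± 0.67, adjusted p = 0.245). Cidec read 8913 and 10016 CPM in DTR+ adipocytes and 7776 and 6216 CPM in DTR- adipocytes (0.92 ± 0.67).

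Fitm2 read 265 and 163 CPM in DTR+ adipocytes and 344 and 290 CPM in DTR- adipocytes (-0.18 ± 0.59), and Hilpda read 10.7 and 13.9 CPM in DTR+ adipocytes and 22.6 and 16.2 CPM in DTR- adipocytes (-0.16 ± 0.66). G0s2 was at 450 and 1394 CPM in DTR+ adipocytes and 819 and 374 CPM in DTR- adipocytes, and the ranges of Plin2, Plin3, Plin5 and G0s2 overlapped. The other 6 members did not overlap between the groups, and neither did 51.1% of all tested genes. Plin3 ran between 75.4 and 83.0 CPM in DTR+ adipocytes and 79.6 and 85.0 CPM in DTR- adipocytes, and Plin5 between 17.8 and 25.1 CPM in DTR+ adipocytes and 22.1 and 23.4 CPM in DTR- adipocytes. Scaling by library totals only put the median gene at -0.40, against -0.04 in the fit reported here, and turned the estimate of Plin3 to -0.0547 and that of Plin5 to -0.0885, both of which were 0.43. Removing 1 library changed the estimates. Without DTR+ replicate 2, Plin1 stood at -2.50, Bscl2 at 2.14, G0s2 at 2.00, Cidec at 1.30 and Plin2 at 1.26. Without DTR+ replicate 3, Plin4 stood at -1.40. For Plin1, Bscl2, Cidec, Plin2 and G0s2 the estimates were smaller in size without DTR+ replicate 3 than without DTR+ replicate 2. Without DTR+ replicate 3 they were -0.541 for Plin1, 0.693 for Bscl2, 0.432 for Cidec, -0.0736 for Plin2 and -0.338 for G0s2. Hilpda went the other way, at -0.777 without DTR+ replicate 3 and 0.306 without DTR+ replicate 2. Each of these fits leaves 1 DTR+ library, which is assumed to vary like the DTR- group. All 7 lipases and partners, 9 synthesis genes and 8 adipocyte markers tested were without a call in this comparison.

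Markers of other cells differed between these groups as well. Endothelial markers summed to 4.63 to 25.5 CPM in DTR+ adipocytes and 294 to 407 CPM in DTR- adipocytes, and fibroblast or stromal markers to 197 to 228 CPM in DTR+ and 631 to 1697 CPM in DTR- adipocytes. Pericyte markers summed to 33.9 to 74.6 CPM in DTR+ and 216 to 298 CPM in DTR- adipocytes, and macrophage markers to 193 to 195 CPM in DTR+ and 311 to 378 CPM in DTR- adipocytes. In DTR+ adipocytes edgeR called lower all 5 endothelial, 4 of 5 fibroblast or stromal and 2 of 4 pericyte markers tested. Of 8 macrophage markers tested, 1 was called higher and 0 lower, so the call and the sum went opposite ways. Adipocyte markers summed to 71520 to 125582 CPM in DTR+ adipocytes and 48494 to 58457 CPM in DTR- adipocytes, and mitochondrially encoded genes took 2.54% to 2.97% of counts in DTR+ and 1.86% to 2.10% in DTR- adipocytes. The part of these differences in the members' values was not tested. The summed share of the 10 genes was nearly equal, at 1.39% to 1.48% of counts in DTR+ adipocytes and 1.41% to 1.46% in DTR- adipocytes, while Plin1 made up 4.49% of the sum per kilobase in DTR+ adipocytes (1.02% and 7.95%) and 13.6% in DTR- adipocytes (9.18% and 18.1%).

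**Figure D5:**
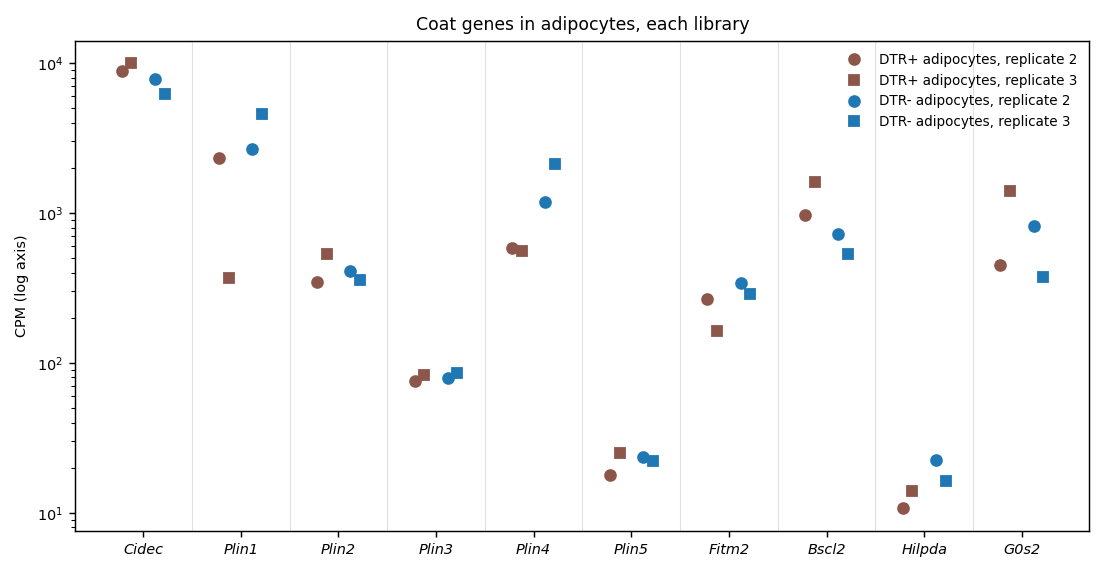
Level of each coat gene in the 2 DTR+ and 2 DTR- adipocyte libraries, in CPM on a log axis; circles are replicate 2 and squares replicate 3. In DTR+ adipocytes Plin1 is at 366 CPM in replicate 3 and 2324 CPM in replicate 2, and G0s2 at 1394 and 450 CPM. The DTR- libraries range from 2686 to 4567 CPM for Plin1 and from 374 to 819 CPM for G0s2.

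In VAT Tregs the detected coat genes were mainly Plin2, Hilpda, Bscl2 and Plin3, the last at 45.6 CPM on average in KO Tregs and 43.8 CPM in WT Tregs. Hilpda read 119, 67.0 and 104 CPM in KO Tregs and 114, 147 and 110 CPM in WT Tregs, and Plin2 read 254, 142 and 182 CPM in KO Tregs and 178, 185 and 149 CPM in WT Tregs, with overlapping ranges for both. Bscl2 read 102, 135 and 122 CPM in KO Tregs and 137, 119 and 137 CPM in WT Tregs, also with overlap. Of 5 members tested, 0 were called by edgeR and 0 by DESeq2, beside 0.0526% of all genes called by edgeR. At an unadjusted edgeR p under 0.05 there was 1 member, beside 1158 of all 11416 tested genes. That 1 was Fitm2, at 1.44, 3.32 and 2.99 CPM in KO Tregs and 7.89, 4.79 and 7.94 CPM in WT Tregs, 21 and 82 counts in all, a log2 fold change of -1.43 ± 0.62 (edgeR adjusted p = 0.462). Its ranges did not overlap. Plin1 and G0s2 had 0 counts in the 3 KO libraries, which allows up to 0.332 CPM for the group and covers counting error only, and 1 and 2 counts in the WT libraries. The adipocyte marker sum in these libraries was 23.2 to 44.6 CPM in KO Tregs and 43.4 to 54.3 CPM in WT Tregs, and Pparg, which these cells express, averaged 30.7 CPM in KO Tregs and 43.4 CPM in WT Tregs.

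The likeness of the members' patterns was measured as Pearson's r of the group means of log2(CPM + 1) over the 15 groups, which share libraries and controls, so it is a description. Within the members, Cidec and Plin1 were most alike (r = 0.980), followed by Plin4 and Fitm2 (0.975) and Plin1 and Plin4 (0.974), and Hilpda and G0s2 were least alike (-0.660). Among 10253 other genes with a mean of at least 20 CPM in a group, the nearest to Cidec was Adipoq, the gene of adiponectin (0.994), the nearest to Plin1 was Hcar1, a lactate receptor (0.984), and the nearest to Plin2 was Fgf21, a secreted hormone (0.981). For G0s2 it was Trarg1 (0.984), for Plin4 Aifm2 (0.981), for Plin5 Hsdl2 (0.984), for Fitm2 Pcx, pyruvate carboxylase (0.987), and for Bscl2 Uqcrq, a subunit of respiratory complex III (0.983). Plin3 (Zdhhc1, 0.944) and Hilpda (Lxn, 0.922) had less close neighbours.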

How the data were processed

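Gene counts of 42 libraries were used as deposited by the authors in 1 table. Per the submitters' processing notes, reads were aligned to mm10 with STAR 2.7.3a and counted with featureCounts, and annotation release, strand setting and treatment of multimapping reads are not given in the sources used here. Every column belonged to 1 sample, so 0 columns were left out. The members and gene lists were chosen with earlier results of these data known, and the motifs after the values were seen. CPM is the count over the library total, and CPM per kilobase divides it by the exon union of GENCODE M21. The share of all genes whose ranges did not overlap was computed only for adipogenic against fresh cells and for the adipocytes. Counts were tested with edgeR 4.0.16 (R 4.3.3, TMM scaling, quasi-likelihood F test, robust, filter at a minimum count of 10), with fresh and adipogenic cells in 1 fit, fresh and transferred cells in another and each other experiment alone, with Benjamini-Hochberg adjustment over all tested genes and calls at an adjusted p under 0.05. Each SE is the absolute log2 fold change divided by the square root of the F statistic and was not estimated directly. The model across the OSM and Treg cultures added an interaction. The script was tested on simulated data. DESeq2 1.42.0, other scaling, no filter, a replicate block and left-out libraries were alternatives. The naming rule covered all members in each comparison. Members without a call were in part given by level only, as were those under 5 CPM in all groups of a comparison, and the difference of culture responses is given in detail for Plin2 alone. In the lists those past the threshold or with the largest change were named. Shared replicate numbers did not pair the samples: correlations of deviations lay between -0.413 and 0.0957, and no comparison had every pair over 0.1. Replicate libraries all differed beyond counting noise, with a chi-square per degree of freedom of 1.50 or more. Promoter windows came from RefSeq. Totals of 1072147 to 12514783 counts limit precision for members at a few counts, and intervals cover counting error only. Figures were drawn with Python 3.11.15.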

Additional observations from a re-analysis of the deposited data

Results flagged for a closer look

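The responses to OSM and to Treg differed by the interaction test of edgeR for each of the 10 members, which is why they are listed here. In log2 units, OSM response minus Treg response, the differences were -5.08 for Plin1, -4.95 for Cidec, -4.31 for G0s2, -3.73 for Plin5, -3.32 for Plin2, -2.79 for Plin4, -2.42 for Fitm2, -0.46 for Bscl2, 0.56 for Plin3 and 2.13 for Hilpda. Adjusted p-values of edgeR were highest for Plin3, at 0.002. OSM cultures and Treg cultures had separate controls, and PBS cultures stood at 947 CPM of Cidec, against 3779 CPM in cultures without Treg. The value of Plin5 rests on 2 counts in the OSM libraries. No group had 4 libraries, so single libraries were not tested for standing apart.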

How the results depend on the processing

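The 59 calls of members gave 750 values under the alternatives: 741 kept their direction and call, 9 kept their direction without the call and 0 turned round. Members without a call changed sign in 61 alternative values, and only those whose fold change is given, chosen after seeing the data, were followed one by one. Counts moved in the comparisons with few calls, and the cause was not tested. Under DESeq2 the count of all genes called was 94 between adipogenic populations, 621 for the difference of culture responses (with 1 member), 482 between VmSC4-derived cells, 274 for VmSC4-derived against VmSC5-derived VmSC5, 545 for DTR+ against DTR- adipocytes and 64 for KO against WT Tregs. Without the low-count filter these counts were 167, 644 (1 member), 450 and 314, and 199 for Tregs, and 2 members were called between fresh populations. With the 2 groups alone they were 215 (1 member), 893 (1 member) and 529 for the adipogenic and the transferred pairs. RLE scaling called 1 member for the culture responses, and library totals only called 0 genes in DTR+ against DTR- adipocytes, with Plin3 at -0.0547 and Plin5 at -0.0885 there. A replicate block called 111 genes there and 0 members, against 287 genes without it, and changed no member count elsewhere. Pairing the adipocyte libraries by crossed numbers, chosen after seeing the data, called 1063 genes and 0 members.

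Leaving out 1 library at a time gave 17 to 98 genes between adipogenic populations, 155 to 660 genes and 0 to 1 members for the culture responses, 39 to 165 genes between VmSC4-derived cells, 31 to 92 genes and 0 to 1 members for VmSC4-derived against VmSC5-derived VmSC5, 1 to 2 members between fresh populations and 0 to 586 genes between KO and WT Tregs. In adipocytes it gave 6 genes without DTR- replicate 3 and 5370 genes without DTR+ replicate 2, with 0 to 5 members. There the log2 fold change of Plin2 ran between -0.0736 and 1.26, that of G0s2 between -0.338 and 2.00, that of Plin3 between -0.0356 and 0.807, that of Plin5 between -0.271 and 0.931, that of Fitm2 between -0.36 and 0.0202 and that of Hilpda between -0.777 and 0.306, and with Treg that of Plin1 ran between -0.0566 and 0.0336. Members with few counts, such as Plin5 with 2 counts in fresh VmSC5, are limited by depth.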
